A study of Mus musculus with 6 samples.

Results

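The amino acid and peptide transporter genes of the mouse small intestine were taken by name from the Slc1, Slc3, Slc6, Slc7, Slc15, Slc36, Slc38 and Slc43 families, pseudogenes left out. The rule found 72 of the 54012 genes in the table. Of these, 68 encode carriers or their subunits and 4 (Slc6a19os, Slc7a6os, Slc36a1os and Slc36a3os) are opposite-strand genes that only share a carrier's name. Total RNA of small intestine was sequenced from 3 mice labelled TLR4ΔIEC and 3 labelled wild type (WT), all 8 to 12 weeks old. The series title states the question as what loss of intestinal TLR4, the lipopolysaccharide receptor, does to transcript levels in this tissue. The strain, sex, Cre driver, stretch of intestine and whether the WT mice carried a floxed allele are not stated in the labels. Values are in TPM, a unit scaled for gene length and to the same total in each library.

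Dietary protein reaches the enterocyte as free amino acids and as di- and tripeptides. Apical carriers in the brush border take them up, driven by sodium or proton gradients or by exchange for other amino acids. Basolateral carriers pass amino acids on to the blood, and several of both kinds work only as a light chain bound to a heavy subunit, Slc3a1 at the apical and Slc3a2 at the basolateral side. Other members of these families serve lysosomes, nerve endings, or the uptake of taurine and creatine.

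Tlr4 itself read 1.29, 1.22 and 4.81 TPM in the libraries labelled TLR4ΔIEC, against 0.65, 0.57 and 0.70 TPM in those labelled WT. The targeted transcript was thus not lower under the label TLR4ΔIEC, and each direction given here compares libraries by their labels. With a WT mean of 0.64 TPM, Tlr4 passed the filter of 1 TPM on the mean of all libraries only through its TLR4ΔIEC values, so no test is given. The enterocyte markers (8 genes) summed to 8969 to 10155 TPM in TLR4ΔIEC and 7765 to 12359 TPM in WT, and none was at 0. Fabp2 makes up much of these sums, at a mean of 3202 TPM in TLR4ΔIEC and 5396 TPM in WT. The other 7 markers had positive log2 fold changes, where 68.1% of all tested genes did so. The median over all 8 was 0.33, against 0.16 over all tested genes. The groups of 4 markers (Epcam, Treh, Cdh17 and Vil1) lay apart, all higher in TLR4ΔIEC, against 24.1% of all tested genes higher. Their part in the apical carrier and peptidase values below was not tested. Markers of exocrine pancreas summed to 6.27 to 14.9 TPM in TLR4ΔIEC and 8.56 to 12.1 TPM in WT, with Prss2 and Cpa1 at 0 in all 6 libraries. Nearly all of these sums came from Cela1, at 6.27 to 14.5 TPM in TLR4ΔIEC and 8.07 to 12.0 TPM in WT. Neuron and glia markers summed to 5.38 to 12.3 TPM in TLR4ΔIEC and 8.22 to 16.0 TPM in WT. TLR4ΔIEC replicate 2 stood apart in whole-library measures, where 12221 genes reached 1 TPM and the remaining libraries had 13197 to 13634 such genes.

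No carrier passed the threshold of an adjusted p under 0.05. Of the 68 carriers, 36 averaged 1 TPM or more and entered the limma fit on log2(TPM + 1), which covered 13458 genes. The count of carriers called was 0 of 36, where limma called 16 of all tested genes (0.119%), 6 higher (0.0446%) and 10 lower (0.0743%) in TLR4ΔIEC. An unadjusted p under 0.05 was reached by 9 of 36 carriers (25.0%), against 21.2% of all genes. Of these 9, 4 were higher and 5 lower in TLR4ΔIEC, where all genes gave 18.4% higher and 2.77% lower. The 5 lower include Slc43a1, which averaged under 1 TPM in TLR4ΔIEC and entered the fit only through its WT values. The 3 libraries of one genotype lay wholly apart from the 3 of the other in 11 of 36 carriers (30.6%), against 27.6% of all genes. In 6 of the 11 the TLR4ΔIEC libraries were above the WT libraries (24.1% of all genes) and in 5 below (3.53% of all genes). Slc43a1 and Slc6a7 reached the filter only through the genotype in which they were high. Without such genes the groups lay apart in 9 of 34 carriers (26.5%), 5 higher and 4 lower, against 27.6% of 12872 genes. The log2 fold change was above 0 in 19 of 36 carriers, against 68.1% of all genes, and its median was 0.02 over the carriers and 0.16 over all genes. Fold changes are TLR4ΔIEC minus WT of log2(TPM + 1), so they come out too small for genes near 1 TPM.

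**Figure D1:**
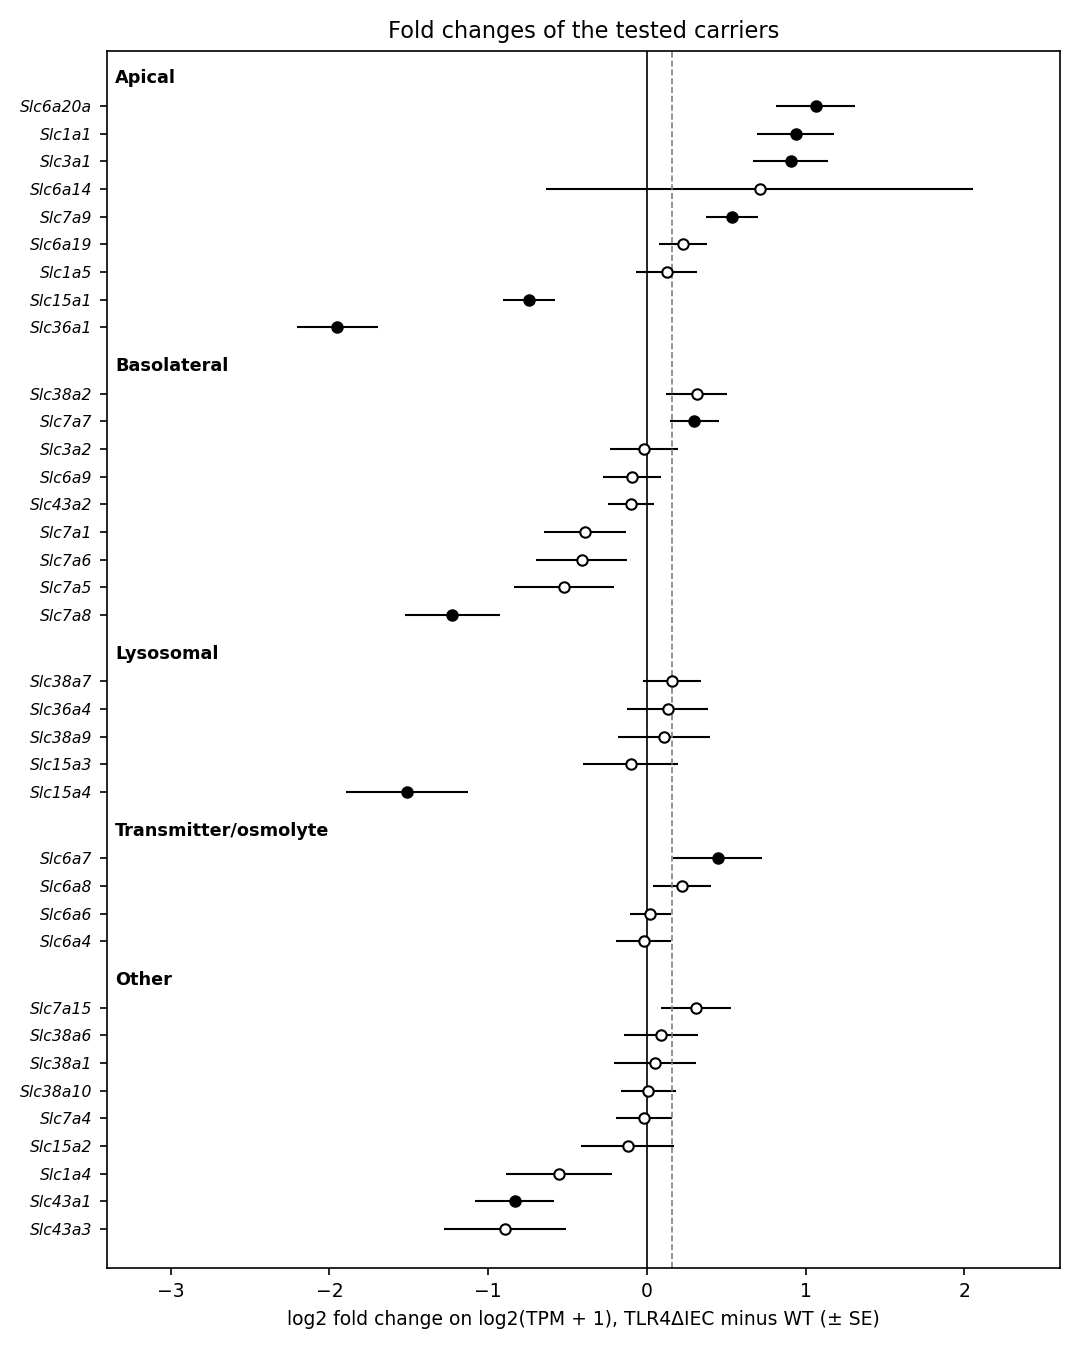
Log2 fold change on log2(TPM + 1), TLR4ΔIEC minus WT, of the 36 tested carriers by role, with SE bars. Filled points mark the 11 genes whose 3 libraries of one genotype lie apart from the 3 of the other, the solid line is 0, and the dashed line is the median of all tested genes, 0.16; Slc36a1 has the lowest value at −1.95 and Slc6a20a the highest at 1.06.

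The apical carriers of cystine and basic amino acids stood higher in TLR4ΔIEC. Slc3a1 (ENSMUSG00000024131, chromosome 17, 85028376 to 85064236, plus strand, GRCm38) encodes the heavy subunit rBAT, whose loss in human causes cystinuria. It measured 279.8, 395.6 and 223.8 TPM in TLR4ΔIEC, against 185.9, 146.7 and 137.0 TPM in WT. All 3 TLR4ΔIEC libraries were above all 3 WT libraries, with means of 300 ± 87.6 and 157 ± 25.9 TPM (SD, n = 3 each). Its log2 fold change of 0.91 (SE 0.24) had a limma adjusted p of 0.116. Its light chain Slc7a9 (ENSMUSG00000030492, chromosome 7, 35448796 to 35466036, plus strand), the second cystinuria gene, measured 272.9, 241.1 and 269.1 TPM in TLR4ΔIEC, against 215.3, 169.4 and 158.4 TPM in WT. These groups did not overlap either, with a log2 fold change of 0.54 (SE 0.16, limma adjusted p = 0.143). Slc3a1 shares exon positions with Prepl on the opposite strand, which read 21.8 to 28.7 TPM in TLR4ΔIEC and 18.6 to 19.9 TPM in WT. No source used here says if counting kept the strand, so part of such a value can come from the partner gene.

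Sequence upstream of the start is shown for Slc3a1 and for the pair of apical carriers that were lower, Slc15a1 and Slc36a1, because they are the 3 non-overlapping apical carriers with a full 250-base stretch free of annotated exons. The windows are from RefSeq (GRCm38.p6), printed 5′ to 3′ on the gene's strand in lower case, with a Cdx-type match (TTTATNG or CNATAAA) in capitals. They lie at chr17:85028097-85028346 for Slc3a1, chr14:121505255-121505504 (minus strand) for Slc15a1 and chr11:55204090-55204339 for Slc36a1.
Slc3a1: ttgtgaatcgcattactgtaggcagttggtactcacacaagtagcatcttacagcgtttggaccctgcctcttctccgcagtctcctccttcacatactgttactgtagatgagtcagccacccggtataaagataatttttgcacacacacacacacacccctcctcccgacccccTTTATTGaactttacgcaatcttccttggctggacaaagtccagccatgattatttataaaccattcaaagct
Slc15a1: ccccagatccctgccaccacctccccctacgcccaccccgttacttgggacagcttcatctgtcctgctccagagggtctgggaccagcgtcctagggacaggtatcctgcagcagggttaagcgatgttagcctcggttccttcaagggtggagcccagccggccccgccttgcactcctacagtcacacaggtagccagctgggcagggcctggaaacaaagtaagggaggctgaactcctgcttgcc
Slc36a1: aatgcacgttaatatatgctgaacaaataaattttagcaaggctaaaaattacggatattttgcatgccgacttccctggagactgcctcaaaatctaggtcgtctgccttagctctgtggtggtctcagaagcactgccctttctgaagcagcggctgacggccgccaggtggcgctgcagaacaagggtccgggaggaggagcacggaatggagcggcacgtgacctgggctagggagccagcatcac
Promoter windows of 300 bases were at hand for 49 of the 68 carriers, 70 windows in all since some genes have several starts. The Cdx-type motif was found in 2 of these 70 windows, of Slc3a1 and Slc7a15, and in 10.9% of all 32851 windows. A GATA-type motif (TGATAA or TTATCA) was found in 7 of the 70 windows and in 9.05% of all windows, and neither motif holds the other. No motif searched matched in the Slc15a1 and Slc36a1 sequences shown, whose G and C content was 62% and 53.2%, against 45.6% for Slc3a1.

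Among sodium-coupled apical carriers, those of imino acids and of acidic amino acids were higher in TLR4ΔIEC and the main neutral one overlapped. Slc6a20a (ENSMUSG00000036814, chromosome 9, 123634770 to 123678885, minus strand), whose human counterpart is the proline carrier SIT1, measured 84.9, 100.9 and 135.1 TPM in TLR4ΔIEC, against 63.5, 37.3 and 51.9 TPM in WT. The TLR4ΔIEC libraries were all higher, with a log2 fold change of 1.06 (SE 0.25, limma adjusted p = 0.105). Its neighbour and paralogue Slc6a20b, too low to be tested with a mean of 0.968 TPM, read 1.35, 1.29 and 1.68 TPM in TLR4ΔIEC and 0.75, 0.36 and 0.38 TPM in WT. Both Slc6a20 genes were therefore higher in each TLR4ΔIEC library than in any WT library, with the caution that reads can be split between related copies. Slc6a20b also shares exon positions with Sacm1l on the opposite strand, which read 28.3, 32.5 and 41.2 TPM in TLR4ΔIEC and 22.6, 24.8 and 31.5 TPM in WT, far above Slc6a20b itself. Slc6a20a also shares exon positions with Ccr9, a lymphocyte chemokine receptor on the opposite strand, which read 0.62 to 2.00 TPM in TLR4ΔIEC and 2.10 to 3.75 TPM in WT.

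Slc1a1 (ENSMUSG00000024935, chromosome 19, 28835049 to 28913960, plus strand), which takes up glutamate, aspartate and cysteine, measured 59.6, 73.8 and 103.2 TPM in TLR4ΔIEC, against 47.5, 31.2 and 42.2 TPM in WT. It was higher in each TLR4ΔIEC library, with means of 78.9 ± 22.2 and 40.3 ± 8.33 TPM and a log2 fold change of 0.94 (SE 0.24, limma adjusted p = 0.115). Slc6a19, the sodium-dependent carrier of neutral amino acids whose loss causes Hartnup disease in human, measured 240.3, 288.2 and 252.3 TPM in TLR4ΔIEC and 201.0, 249.8 and 215.5 TPM in WT. Its groups overlapped, and its log2 fold change of 0.23 (SE 0.15, limma adjusted p = 0.430) turned to −0.0641 under quantile normalization. Slc1a5, a glutamine exchanger, overlapped as well, at 34.8, 24.5 and 30.9 TPM in TLR4ΔIEC and 28.9, 31.3 and 22.2 TPM in WT, and its log2 fold change of 0.13 was below 0 under 4 other scalings.

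Slc6a14, a carrier of neutral and basic amino acids, divided the libraries by replicate number and not by genotype. It measured 28.9, 0.91 and 0.76 TPM in TLR4ΔIEC, against 13.1, 0.44 and 0.13 TPM in WT. Replicate 1 of each genotype was thus far above the other 4 libraries, and the log2 fold change of 0.71 had an SE of 1.34 (limma adjusted p = 0.804). The ileal hormone gene Fgf15, no carrier, had its lowest values in the same libraries, at 1.40, 28.5 and 20.3 TPM in TLR4ΔIEC and 0.70, 33.2 and 27.6 TPM in WT.

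Both proton-coupled apical carriers were lower in TLR4ΔIEC. Slc15a1 (ENSMUSG00000025557, chromosome 14, 121459621 to 121505252, minus strand) encodes PepT1, the uptake carrier for di- and tripeptides. It measured 109.5, 127.7 and 145.9 TPM in TLR4ΔIEC, against 188.2, 234.4 and 217.6 TPM in WT. All TLR4ΔIEC libraries were below all WT libraries, with means of 128 ± 18.2 and 213 ± 23.4 TPM and a log2 fold change of −0.74 (SE 0.16, limma adjusted p = 0.0990). Slc36a1 (ENSMUSG00000020261, chromosome 11, 55204350 to 55236330, plus strand) encodes PAT1, which carries glycine, alanine and proline and is also found on lysosomes. It measured 5.70, 4.48 and 6.02 TPM in TLR4ΔIEC, against 18.5, 34.7 and 20.3 TPM in WT, so that its mean in TLR4ΔIEC was 0.220 times that in WT. The groups did not overlap, and its log2 fold change of −1.95 (SE 0.25) had the smallest limma adjusted p of all carriers, 0.0689. Over 17 alternative settings the log2 fold change of Slc36a1 ran from −2.29 to −1.47 and its adjusted p from 0.0389 to 0.232. It passed in 5 of these, which are median-of-ratios scaling, quantile normalization, omission of alpha-defensin, mitochondrial and 18S-like genes, array weights, and omission of TLR4ΔIEC replicate 1.

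**Figure D2:**
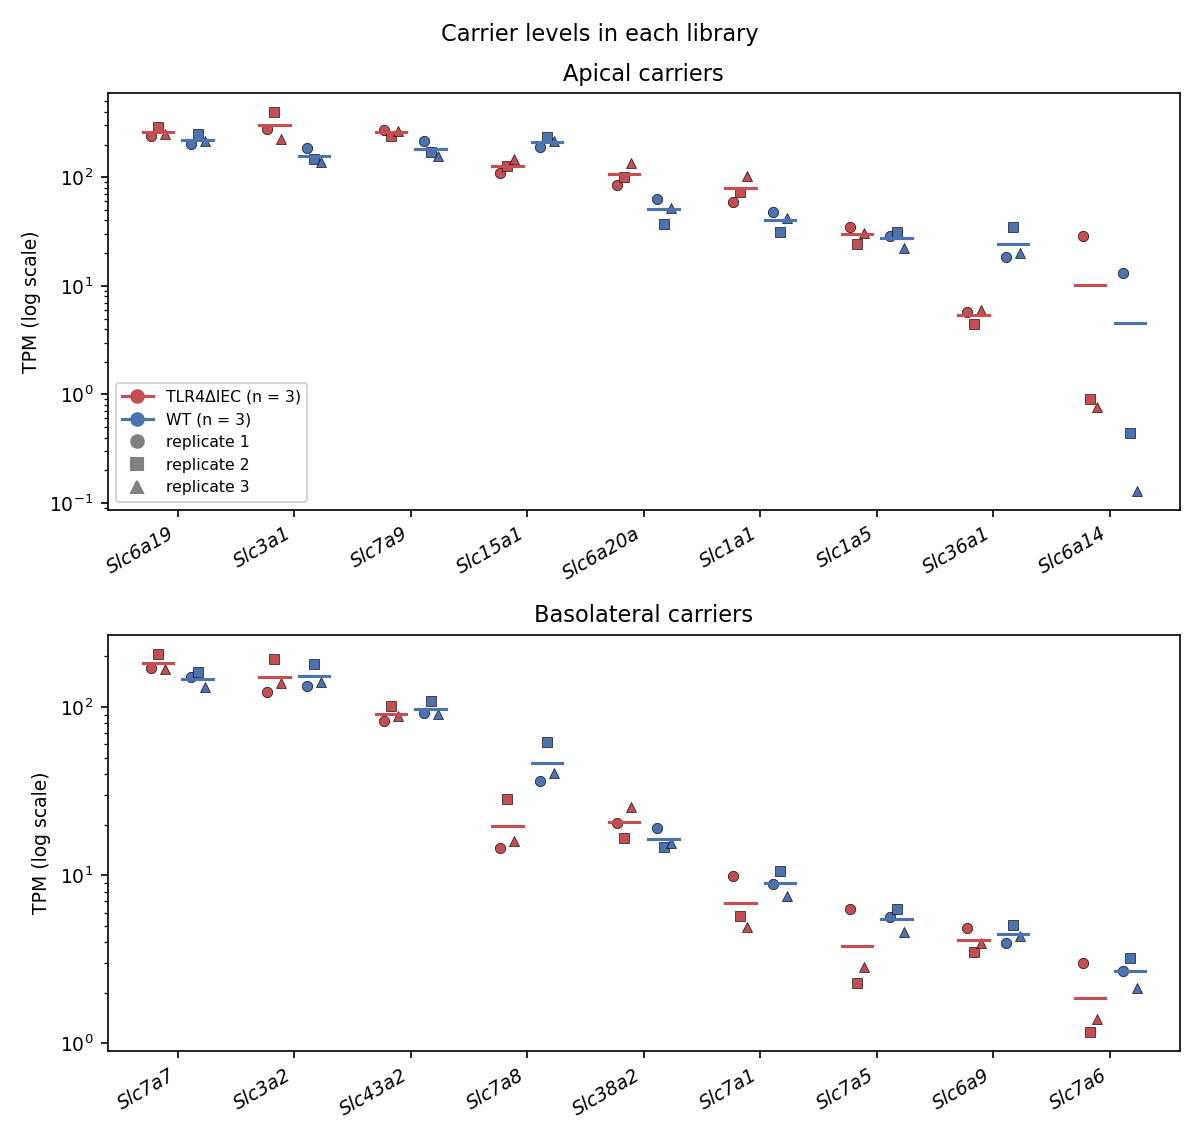
TPM in each library (log scale) of the tested apical and basolateral carriers, TLR4ΔIEC left of WT for each gene, with marker shapes for replicate numbers and bars for group means (n = 3 each). Slc3a1, Slc7a9, Slc6a20a and Slc1a1 lie higher and Slc15a1, Slc36a1 and Slc7a8 lower in all 3 TLR4ΔIEC libraries, while Slc6a14 is high in replicate 1 of both genotypes.

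On the basolateral side the light chains differed from each other. Slc7a8 (ENSMUSG00000022180, chromosome 14, 54722209 to 54781946, minus strand) encodes LAT2, an exchanger of neutral amino acids. It measured 14.5, 28.2 and 16.0 TPM in TLR4ΔIEC, against 36.3, 62.4 and 40.8 TPM in WT. All TLR4ΔIEC libraries were lower, with means of 19.6 ± 7.52 and 46.5 ± 13.9 TPM and a log2 fold change of −1.23 (SE 0.30, limma adjusted p = 0.111). Slc7a7 (ENSMUSG00000000958, chromosome 14, 54369442 to 54417780, minus strand) encodes y+LAT1, which releases basic amino acids and is lost in human lysinuric protein intolerance. It measured 170.2, 207.4 and 168.1 TPM in TLR4ΔIEC, against 150.3, 161.5 and 130.7 TPM in WT. The TLR4ΔIEC libraries lay above those of WT by a small margin, and the log2 fold change of 0.30 (SE 0.15, limma adjusted p = 0.315) turned to −0.0189 under quantile normalization. Slc7a7 shares exon positions with Oxa1l on the opposite strand, which read 25.0 to 31.6 TPM in TLR4ΔIEC and 22.6 to 29.1 TPM in WT.

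The heavy subunit Slc3a2, which both of these light chains need, measured 122.7, 193.5 and 138.6 TPM in TLR4ΔIEC, against 133.5, 181.3 and 141.4 TPM in WT. Its groups overlapped fully (log2 fold change −0.02, SE 0.21, limma adjusted p = 0.971). Slc43a2, which encodes the uniporter LAT4 for branched-chain and other neutral amino acids, also overlapped, at 82.8, 101.8 and 88.5 TPM in TLR4ΔIEC and 92.4, 109.0 and 91.1 TPM in WT. Slc38a2, a sodium-coupled carrier of small neutral amino acids, overlapped at 20.4, 16.6 and 25.5 TPM in TLR4ΔIEC and 19.0, 14.8 and 15.5 TPM in WT. The glycine carrier Slc6a9 had a log2 fold change of −0.09 (SE 0.18).

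In 3 basolateral carriers of broader tissue use, TLR4ΔIEC replicate 1 lay within or just above the WT range and replicates 2 and 3 lay below it. Slc7a5, the exchanger LAT1 of large neutral amino acids, measured 6.33, 2.29 and 2.83 TPM in TLR4ΔIEC and 5.65, 6.30 and 4.62 TPM in WT. Slc7a1, the basic amino acid carrier CAT1, measured 9.85, 5.75 and 4.91 TPM in TLR4ΔIEC and 8.86, 10.6 and 7.54 TPM in WT. Slc7a6, which encodes y+LAT2, measured 3.02, 1.17 and 1.39 TPM in TLR4ΔIEC and 2.68, 3.24 and 2.14 TPM in WT. Their log2 fold changes of −0.52, −0.39 and −0.41 did not pass (limma adjusted p 0.390, 0.429 and 0.457).

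The basolateral gene Slc7a7 has a match to the amino acid response element of Atf4 and C/EBP factors upstream of one of its starts. It is shown because only 294 of 32851 windows (0.895%) hold this motif (TTGCATCA or TGATGCAA, in capitals), among them 4 of the 70 carrier windows, of Slc7a7, Slc1a4 and Slc7a11. The stretch lies at chr14:54417781-54417952 on the minus strand (RefSeq, GRCm38.p6).
Slc7a7: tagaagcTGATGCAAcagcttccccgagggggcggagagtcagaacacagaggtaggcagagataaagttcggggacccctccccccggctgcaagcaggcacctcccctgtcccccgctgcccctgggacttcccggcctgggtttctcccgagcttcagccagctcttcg
The match is a run of letters and no test of binding. Slc1a4, an exchanger of alanine, serine and cysteine, read 5.63, 2.17 and 2.17 TPM in TLR4ΔIEC and 6.47, 4.59 and 4.04 TPM in WT. The match of Slc1a4 was counted in a window of 300 bases and does not lie in its upstream stretch of 250 bases free of annotated exons. Slc7a11, the cystine and glutamate exchanger, read at most 0.69 TPM in any library.

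Set side by side, most apical log2 fold changes were above 0, as were those of most genes. Most basolateral ones were below 0, with exceptions on both sides. Of 10 apical genes 9 were tested, and 7 had positive and 2 negative log2 fold changes, where 68.1% of all genes were above 0. Under quantile normalization Slc6a19 and Slc1a5 turned below 0. The apical median was 0.54, which was 0.28 without TLR4ΔIEC replicate 1 and 0.24 under quantile normalization. All 9 basolateral genes were tested, and 2 had positive and 7 negative log2 fold changes, with a median of −0.10. Among the 7, Slc3a2, Slc6a9 and Slc43a2 lay close to 0, at −0.02, −0.09 and −0.10. Against the median of 0.16 over all genes, the apical median was thus higher and the basolateral one lower, and no test was run on these lists. The groups lay apart in 6 of 9 apical genes, 4 higher and 2 lower, and in 2 of 9 basolateral genes, 1 higher and 1 lower, against 27.6% of all genes (24.1% higher and 3.53% lower). Within each library the mean log2(TPM + 1) of the apical carriers exceeded that of the basolateral ones by 1.79, 1.55 and 1.73 in TLR4ΔIEC, against 1.61, 0.97 and 1.16 in WT. WT replicate 1 lay within the TLR4ΔIEC range, so the genotypes overlapped in this measure, which Slc6a14 also moves. The difference of the medians was 0.63 and ranged from 0.42 to 0.91 when single libraries were left out, with the highest value without WT replicate 1.

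Ratios within a library are not changed by a scaling that multiplies all its TPM by one factor, though quantile normalization can change them. The light chain Slc7a9 stood to its heavy subunit Slc3a1 at 0.975, 0.609 and 1.20 in TLR4ΔIEC, against 1.16, 1.16 and 1.16 in WT. The WT ratios were alike to 3 digits, and TLR4ΔIEC replicate 2 was the lowest while replicate 3 was the highest of all. Slc7a7 stood to Slc3a2 at 1.39, 1.07 and 1.21 in TLR4ΔIEC and at 1.13, 0.891 and 0.925 in WT, which overlapped.

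The remaining pairs were chosen after their values were seen. Slc15a1 stood to Slc6a19 at 0.456, 0.443 and 0.578 in TLR4ΔIEC, against 0.936, 0.938 and 1.01 in WT. The peptide carrier was thus near the level of the neutral amino acid carrier in each WT library and clearly under it in each TLR4ΔIEC library. Slc7a8 stood to Slc7a7 at 0.0850, 0.136 and 0.0954 in TLR4ΔIEC, against 0.241, 0.386 and 0.312 in WT, with no overlap. The ratios of Slc15a1 to Slc3a1 and of Slc36a1 to Slc15a1, chosen in the same way, were also lower in TLR4ΔIEC without overlap.

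**Figure D3:**
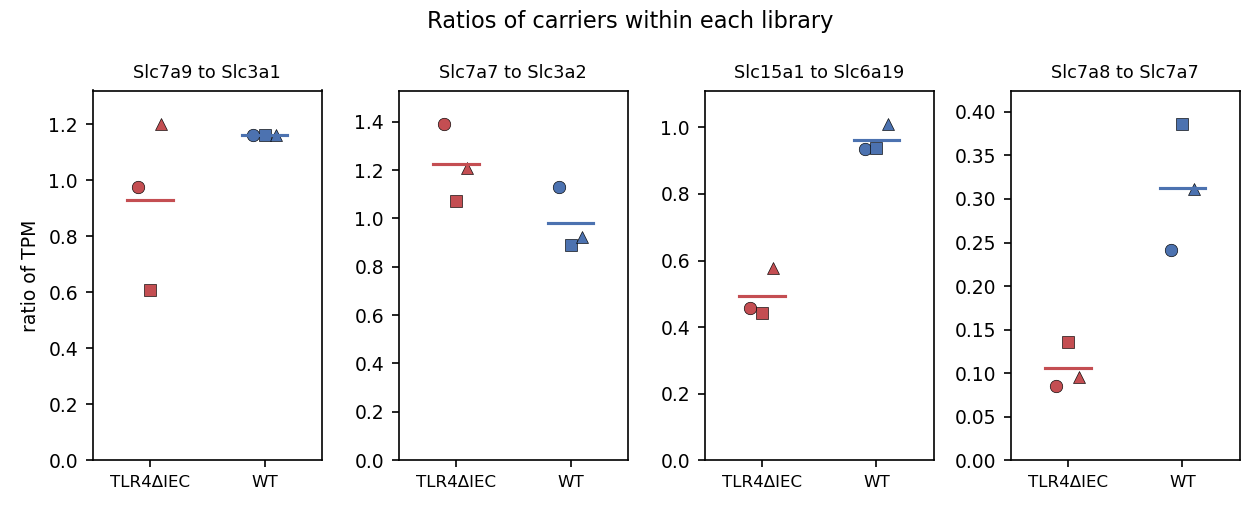
Ratio of TPM within each library for 4 pairs of carriers, TLR4ΔIEC left and WT right, with marker shapes (circle, square, triangle) for replicates 1 to 3 and bars for means (n = 3 each). The ratios of Slc15a1 to Slc6a19 and of Slc7a8 to Slc7a7 are lower in all 3 TLR4ΔIEC libraries, and the pairs of light chain and heavy subunit overlap.

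Of 6 lysosomal members 5 were tested, and the groups lay apart in 1 (20%), lower, against 27.6% of all genes (3.53% lower). Slc15a4 (ENSMUSG00000029416, chromosome 5, 127595664 to 127632897, minus strand), a proton-coupled histidine and peptide carrier of endolysosomes that immune cells also use, measured 16.3, 5.47 and 6.69 TPM in TLR4ΔIEC, against 24.3, 34.8 and 20.9 TPM in WT. All TLR4ΔIEC libraries were lower, with a log2 fold change of −1.51 (SE 0.38, limma adjusted p = 0.112, and 0.0279 to 0.377 over the alternatives, lowest without TLR4ΔIEC replicate 1). B and plasma cell markers (7 genes) were lower as a sum in the same libraries, at 689 to 2254 TPM in TLR4ΔIEC and 4637 to 5546 TPM in WT, and none was at 0. In 3 of the 7 the groups lay apart, all lower. Macrophage markers (5 genes) summed to 32.6 to 144 TPM in TLR4ΔIEC and 103 to 117 TPM in WT. The part of either cell type in the Slc15a4 values was not tested, and in bulk tissue fewer cells and less RNA per cell cannot be told apart. The lysosomal glutamine carrier Slc38a7 read 5.75, 6.48 and 6.86 TPM in TLR4ΔIEC and 7.01, 4.92 and 5.00 TPM in WT, with overlap. Slc15a3, Slc36a4 and the arginine sensor Slc38a9 had log2 fold changes of −0.10 to 0.13.

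Of 16 carriers of transmitters and osmolytes 4 were tested, and the groups overlapped in 3 of them. They lay apart in 1 (25%), higher, against 27.6% of all genes (24.1% higher). Slc6a8, the creatine carrier, had the highest mean of all 68 carriers, with 251.4, 301.4 and 271.4 TPM in TLR4ΔIEC and 199.97, 290.65 and 222.81 TPM in WT, with overlap and a direction that turned under quantile normalization (log2 fold change 0.22, and −0.0818 there). Slc6a6, the taurine carrier, measured 58.4, 57.9 and 50.8 TPM in TLR4ΔIEC and 56.3, 57.8 and 50.3 TPM in WT. The serotonin carrier Slc6a4 averaged 31.8 ± 6.57 TPM in TLR4ΔIEC and 31.8 ± 1.15 TPM in WT. Slc6a7, known as a proline carrier of brain, lay apart close to the filter of 1 TPM, with 0.99, 0.82 and 2.20 TPM in TLR4ΔIEC and 0.72, 0.67 and 0.60 TPM in WT, and it passed the filter only through its TLR4ΔIEC values, so no test is given. The other 12 genes were under the filter.

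Among 26 further carriers, 9 reached the filter, and the groups overlapped in 8 of them. They lay apart in 1 (11.1%), lower, against 27.6% of all genes (3.53% lower). Slc43a1, which encodes LAT3, measured 0.92, 0.46 and 0.56 TPM in TLR4ΔIEC, against 2.65, 1.69 and 1.52 TPM in WT, and it passed the filter only through its WT values, so no test is given. Slc7a15, an aromatic amino acid carrier of mouse, read 41.9, 65.2 and 47.2 TPM in TLR4ΔIEC and 33.1, 49.9 and 40.5 TPM in WT, with overlap. Slc38a10 had a log2 fold change of 0.01 (SE 0.17). Slc43a3, a purine nucleobase carrier named after its values were seen, read 12.7, 3.66 and 6.35 TPM in TLR4ΔIEC and 12.0, 17.4 and 11.5 TPM in WT, where TLR4ΔIEC replicate 1 again lay in the WT range. Over all 36 tested carriers, TLR4ΔIEC replicate 1 lay within the WT range in 12, replicate 2 in 10 and replicate 3 in 11, where 35.0%, 22.8% and 26.7% of all tested genes did so in these libraries.

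Of the 68 carriers, 32 were not tested, and none exceeded 1.70 TPM in any library. Among these, 7 were listed at 0 in all 6 libraries (Slc6a2, Slc6a3, Slc6a5, Slc6a16, Slc6a21, Slc7a12 and Slc7a13), among them the noradrenaline, dopamine and one glycine carrier of nerve endings. Beside Slc6a20b, the groups lay apart in Slc6a18, a kidney neutral amino acid carrier, with 1.70, 0.60 and 1.38 TPM in TLR4ΔIEC and 0.26, 0.54 and 0.47 TPM in WT, and in Slc1a7, with 0.03, 0.00 and 0.02 TPM in TLR4ΔIEC and 0.11, 0.14 and 0.10 TPM in WT. Slc7a6os, the only opposite-strand gene tested, had a log2 fold change of 0.34 (SE 0.15, limma adjusted p = 0.242). By level, 20 carriers averaged 10 TPM or more and 7 averaged 100 TPM or more. The 5 highest, Slc6a8, Slc6a19, Slc3a1, Slc7a9 and Slc15a1, held 55.0% to 57.4% of the summed carrier TPM in TLR4ΔIEC and 53.0% to 54.2% in WT. That sum was 2065, 2361 and 2113 TPM in TLR4ΔIEC and 1869, 2056 and 1756 TPM in WT.

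Accessory genes outside the families were then set beside the carriers. Of 5 partners 4 were tested and 0 passed in limma, 3 having an unadjusted p under 0.05, against 21.2% of all genes. Slc16a10, the basolateral aromatic amino acid carrier TAT1, measured 15.9, 23.4 and 24.2 TPM in TLR4ΔIEC, against 30.2, 38.7 and 31.1 TPM in WT. Slc9a3, the apical sodium/proton exchanger NHE3 that restores the proton gradient used by PepT1, measured 11.9, 4.50 and 8.74 TPM in TLR4ΔIEC, against 17.6, 18.9 and 16.3 TPM in WT. Both were lower in each TLR4ΔIEC library, with log2 fold changes of −0.65 and −1.07 (limma adjusted p 0.145 and 0.127). The brush border scaffolds Pdzk1 and Slc9a3r1 were higher in each TLR4ΔIEC library, with log2 fold changes of 0.80 and 0.36.

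The listed peptidases, not all of them at the brush border, were mostly higher in TLR4ΔIEC. Of 15 peptidases 14 were tested, 0 passed in limma, and 10 had an unadjusted p under 0.05, 9 higher and 1 lower (Ace, whose groups overlapped), against 18.4% higher and 2.77% lower of all genes. Their median log2 fold change was 0.54, against 0.16 over all genes. Naaladl1 measured 1570, 3388 and 2209 TPM in TLR4ΔIEC, against 1165, 736.9 and 783.5 TPM in WT. Anpep, aminopeptidase N, measured 5804, 7542 and 5888 TPM in TLR4ΔIEC, against 4087, 3367 and 3065 TPM in WT. The groups of both genes did not overlap, with log2 fold changes of 1.37 and 0.87 (limma adjusted p 0.108 and 0.123). The groups also lay apart, with TLR4ΔIEC higher, in Mep1a, Dpep1, Xpnpep2, Ggt1, Cndp2, Enpep, Mep1b and Pepd, at log2 fold changes of 0.28 to 1.34. Lap3, a cytosolic leucine aminopeptidase, lay apart in the other direction at −0.30.

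The genes of the amino acid response, in which the factor Atf4 raises carriers and synthesis enzymes when amino acids are short, were split. Of 15 entries 13 were tested, 0 passed in limma, and 3 had an unadjusted p under 0.05 (23.1%, against 21.2% of all genes), with a median log2 fold change of −0.10. Atf4 itself measured 155.1, 142.6 and 173.1 TPM in TLR4ΔIEC, against 94.4, 126.6 and 106.5 TPM in WT, with no overlap (log2 fold change 0.53, SE 0.16, limma adjusted p = 0.143). Ddit3 also lay higher, at a log2 fold change of 0.78, and its target Trib3 lower, at −0.61. Sesn2, the third gene with an unadjusted p under 0.05 beside Atf4 and Ddit3, lay higher at 0.50. The proline synthesis gene Aldh18a1 had a log2 fold change of 0.13 (SE 0.22). The enzyme genes Asns, Mthfd2, Psat1, Phgdh and Shmt2 had −0.52, −0.52, −0.48, −0.33 and −0.18, with overlapping groups. Of the 13 tested genes 5 were above 0 and 8 below.

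**Figure D4:**
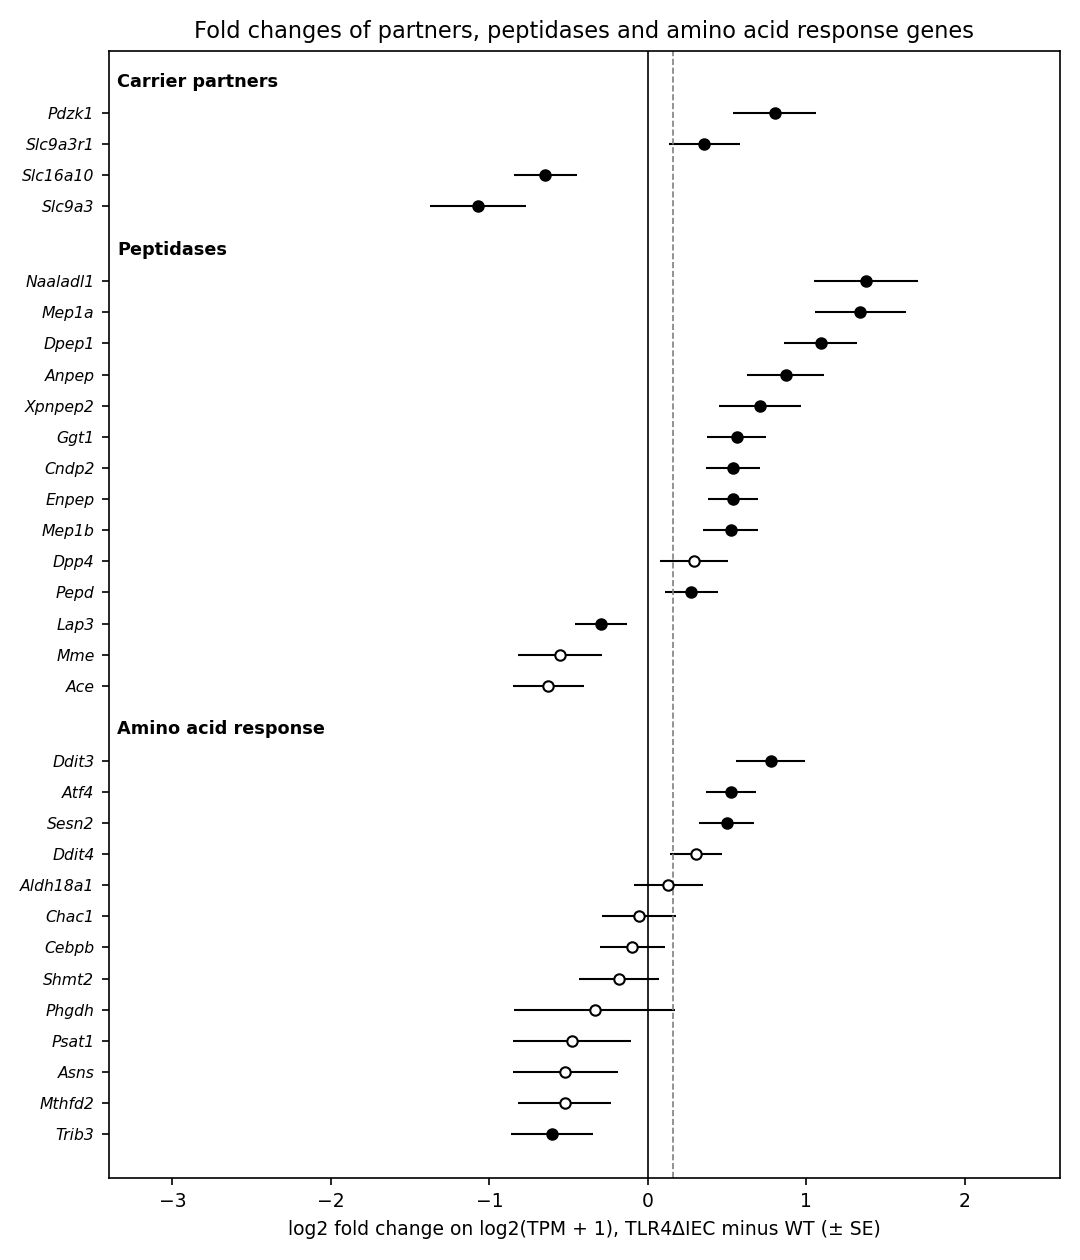
Log2 fold change on log2(TPM + 1), TLR4ΔIEC minus WT, of tested carrier partners (4), peptidases (14) and amino acid response genes (13), with SE bars. Filled points mark genes whose groups do not overlap, and the dashed line is the median of all genes, 0.16; most peptidases lie right of it, with Naaladl1 at 1.37, and Slc9a3 has the lowest value at −1.07.

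Markers of position along the intestine and of Paneth cells also differed between the same libraries. The 9 proximal markers summed to 326 to 465 TPM in TLR4ΔIEC and 710 to 1914 TPM in WT, and none was at 0. In WT most of the sum came from Apoa4 and Fabp1, at means of 629 and 425 TPM. Past the threshold (limma adjusted p under 0.05) were 3 lower and 1 higher, against 0.0743% and 0.0446% of all genes. The 3 lower include Lct, which averaged 0.52 TPM in TLR4ΔIEC and passed the filter only through its WT values. The 1 higher was S100g, at a mean of 112 TPM in TLR4ΔIEC and 14.0 TPM in WT. The median log2 fold change was −2.55, with 6 negative and 3 positive (S100g, Slc40a1 and Cbr1). Slc40a1 averaged 23.8 TPM in TLR4ΔIEC and 7.39 TPM in WT. The 7 ileal markers summed to 11116 to 36883 TPM in TLR4ΔIEC and 3375 to 8263 TPM in WT, and none was at 0. Most of these sums came from Fabp6, at a mean of 22955 TPM in TLR4ΔIEC and 4961 TPM in WT. Of the 7, 6 were higher in all 3 TLR4ΔIEC libraries, against 24.1% of all genes, and Fgf15 overlapped. The 6 Paneth cell markers summed to 12436 to 50618 TPM in TLR4ΔIEC and 74355 to 83396 TPM in WT. The part of these in the carrier values was not tested. The labels do not say whether the same stretch was taken from each mouse, so that position and genotype cannot be told apart here.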

How the data were processed

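RNA sequencing of small intestine gave TPM per gene for 6 mice, 3 labelled TLR4ΔIEC and 3 labelled WT. The authors deposited 1 table of TPM. Per the submitters' processing notes, fastp, HISAT, RSEM and build GRCm38.p5 were used, while versions, library strand and read counts are not given in the sources used here. TPM keep no depth, so the precision that depth gives cannot be stated. The genotype means that the authors also deposited were not used.

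The 13458 genes that averaged 1 TPM or more were fitted as log2(TPM + 1) in limma 3.58.1 (R 4.3.3), using the intensity trend and Benjamini-Hochberg adjustment over all of them, after a check on simulated data. The fold change on this scale understates that of low genes. The p-values measure the spread between these mice, which the design text gives as separate animals. Names, coordinates and exons came from the GENCODE M21 annotation (GRCm38). Promoters came from RefSeq (GRCm38.p6), matched by symbol. The printed stretches were trimmed so that they hold no annotated exon, while motifs were counted in the windows of 300 bases. Figures were drawn with matplotlib 3.10.9.

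The members and lists were chosen with earlier results of these data known. Genes named with values were all tested apical and basolateral carriers, on the other carrier lists those with non-overlapping groups and the 2 highest, and on the accessory lists those with non-overlapping groups at a mean of 5 TPM or more and the 2 highest. Slc43a3, Slc1a4, Slc7a11, Slc6a4, Slc15a3, Slc36a4, Slc38a9, Slc6a20b, Slc6a18, Slc1a7, Slc7a6os, Fgf15, Cela1, Lct, Sesn2, Asns, Mthfd2, Psat1, Phgdh, Shmt2, the enterocyte markers and the genes sharing exon positions were named after their values were seen. Alternatives were other pseudocounts and filters, other scalings, array weights, no trend, a replicate block and omission of each library. Over all tested genes, the deviations of same-numbered mice from their group means correlated little (−0.04, 0.04 and 0.12), so no pairing was used. Single genes such as Slc6a14 and Fgf15 did split by replicate number, and 3 of 6 libraries correlated best with their own number. Some accessory genes of the partner list are not reported here.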

Additional observations from a re-analysis of the deposited data

How the results depend on the processing

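Of 45 named genes, 33 kept their direction under all 17 alternatives and 12 did not. The count of carriers called, 0, became 1 (Slc36a1) under median-of-ratios scaling, quantile normalization, omission of alpha-defensin, mitochondrial and 18S-like genes, or array weights, and ran from 0 to 2 over the omissions of single libraries, with Slc36a1 and Slc15a4 called without TLR4ΔIEC replicate 1. Calls over all genes, 16, became 0 with no filter (3377 with an unadjusted p under 0.05), 7 at a mean of 5 TPM, 136 with array weights and 1 with the replicate block, and ran from 0 to 367 over omissions, being 0 without WT replicate 2 or TLR4ΔIEC replicate 2 and 367 without TLR4ΔIEC replicate 1. With the replicate block 0 carriers were called, and 3 of 6 libraries correlated best with their own number. The apical median of 0.54 was 0.24 under quantile normalization and 0.28 to 0.75 over omissions, lowest without TLR4ΔIEC replicate 1. The basolateral median of −0.10 was −0.29 with median-of-ratios scaling, −0.38 with quantile normalization, −0.27 without the 20 highest genes, −0.42 without alpha-defensin, mitochondrial and 18S-like genes. The difference of the medians ran from 0.42 to 0.91 over omissions. The median of all genes, 0.16, was −0.01, 0.02, 0.00 and −0.13 under the same 4 scalings. The split of calls, 6 higher and 10 lower, was 3 and 13, 4 and 14, 3 and 8, and 3 and 11. Some log2 fold changes turned in direction. Median-of-ratios scaling gave Slc1a5 −0.0664, Slc38a7 −0.0090, Slc6a6 −0.17, Slc38a10 −0.18 and Aldh18a1 −0.0617. Quantile normalization gave Slc6a19 −0.0641, Slc1a5 −0.13, Slc7a7 −0.0189, Slc6a8 −0.0818, Slc6a6 −0.29, Slc7a15 −0.0031, Slc38a10 −0.28 and Aldh18a1 −0.16. Omission of the 20 highest genes gave Slc1a5 −0.0427, Slc6a6 −0.15, Slc38a10 −0.16 and Aldh18a1 −0.0389. Omission of alpha-defensin, mitochondrial and 18S-like genes gave Slc6a19 −0.0941, Slc1a5 −0.19, Slc7a7 −0.0238, Slc38a7 −0.12, Slc6a8 −0.10, Slc6a6 −0.30, Slc7a15 −0.0105, Slc38a10 −0.31, Pepd −0.0487 and Aldh18a1 −0.19. Array weights gave Slc6a6 −0.0453, Slc38a10 −0.0532 and Aldh18a1 −0.0262. Over omissions of single libraries the ranges were Slc1a5 −0.0150 to 0.26, Slc6a14 −0.63 to 1.87, Slc3a2 −0.21 to 0.12, Slc6a6 −0.0371 to 0.0866, Slc38a10 −0.0916 to 0.13 and Aldh18a1 −0.0261 to 0.31. The cause was not tested. Depth cannot be read from TPM, so how far it limits low genes is unknown.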
